A study of Mus musculus with 55 samples.

Results

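Oct4 (encoded by Pou5f1), Sox2 and Nanog are the core transcription factors of pluripotency, and their pre-mRNA was followed in mouse embryonic stem (ES) cells as they left mitosis. The genes were chosen by name, and 2 of the 3 have a row in both tables of pre-mRNA levels, Pou5f1 and Nanog, among 9911 genes listed for the CCNA-GFP line and 10237 for the CTCF-AID line. Sox2 has no row in the tables used here and was not analysed. OCT4, a POU-domain factor, and SOX2, an HMG-box factor, bind side by side at composite DNA elements and, with the homeodomain protein NANOG, keep ES cells in their undifferentiated state. They act on each other's genes as well as on many others, and NANOG levels are known to vary from cell to cell in serum. Their mRNAs are made only while RNA polymerase II transcribes, which is largely suspended in mitosis, so each cell has to start these genes again when it enters G1.

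All cells derived from the E14Tg2a line and grew in serum with LIF. CCNA-GFP cells carry a cyclin A-GFP reporter of the cell cycle and gave 19 libraries. CTCF-AID cells, a single clone, carry the architectural protein CTCF fused to a degron, so that the auxin IAA triggers loss of the protein, and gave 18 libraries without and 18 with 0.5 mM IAA. Cells of both lines were held with the CDK1 inhibitor RO-3306 at 10 µM for 4 h and then in nocodazole at 50 ng/ml for 4 h, shaken off as mitotic cells and released, and IAA was added for the last 2 h of nocodazole and kept on during the release. Per the study's methods, asynchronous cells of the IAA arm, which had no nocodazole, were treated alongside for 4 h. Asynchronous and mitotic cells gave 3 libraries in each arm and post-mitotic stages gave 2, except for 50 min in CCNA-GFP with 1 and 30 min, which only CCNA-GFP has. Replicates 1 and 2 cover 20, 40, 60 and 120 min, and replicates 1 and 3 cover 90 min in both lines, 30 min in CCNA-GFP and 50 min in CTCF-AID, so neighbouring stages do not always hold the same replicates. Values are TPM of an unspliced isoform, a level corrected for length and for the size of the library, and the number of reads behind them is unknown. How libraries of the 2 lines were scaled to each other is not fully described, so their levels are set side by side without a test.

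The sum of all listed pre-mRNA levels in a library moved with the stage. It ran from 13747 to 17245 TPM in mitotic and from 30992 to 42576 TPM at 60 min in CCNA-GFP, and from 17777 to 23302 TPM in mitotic and from 37872 to 39173 TPM at 60 min over both CTCF-AID arms. Directions below are on the deposited scale unless a sentence names another, which is either every library brought to the same sum or centred on its median gene. In bulk samples such as these, fewer cells that transcribe a gene and less RNA per cell cannot be told apart.

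Pou5f1 (ENSMUSG00000024406) lies on the plus strand of chr17:35506018-35510772 of GRCm38 in the Gencode vM21 annotation, and Nanog (ENSMUSG00000012396) on the plus strand of chr6:122707489-122714633. Each has at most 5 exons in a transcript. Of the Pou5f1 gene, 2507 of 4755 bases are intronic in every annotated transcript, and of Nanog 4903 of 7145, so an unspliced Nanog transcript holds about the same exonic length, 2242 against 2248 bases, and more intron. Sox2 (chr3:34650405-34652461, plus strand) has a single exon and no intron. None of the 1328 protein-coding genes with 1 exon in every annotated transcript is listed in either table, against 10167 of 20595 with 2 or more exons (49.4%). Both listed members have processed pseudogene copies elsewhere in the genome, so how exonic reads were shared out is uncertain, and an unlisted antisense gene, Gm19553, overlaps Pou5f1.

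The 250 bases upstream of each start site are shown because the main windows of the 2 listed members differ in the composite element that OCT4 and SOX2 are known to bind. They are RefSeq promoters of GRCm38.p6, plus strand, 5′ to 3′, for Pou5f1 from chr17:35505782-35506031 and for Nanog from chr6:122707239-122707488, and capitals mark the octamer motif ATGCAAA, the SOX motif CATTGT and the GC box GGGCGG, searched on both strands.
Pou5f1: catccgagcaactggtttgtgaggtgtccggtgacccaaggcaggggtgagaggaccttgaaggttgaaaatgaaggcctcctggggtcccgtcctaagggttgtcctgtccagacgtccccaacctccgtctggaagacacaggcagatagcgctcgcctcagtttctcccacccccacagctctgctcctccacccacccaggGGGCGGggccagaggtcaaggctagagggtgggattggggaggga
Nanog: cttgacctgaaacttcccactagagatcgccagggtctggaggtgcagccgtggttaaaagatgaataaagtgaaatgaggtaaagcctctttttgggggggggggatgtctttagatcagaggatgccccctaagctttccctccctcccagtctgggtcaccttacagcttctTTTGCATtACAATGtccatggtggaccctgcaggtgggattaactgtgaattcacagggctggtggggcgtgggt

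The Nanog sequence held the octamer motif and the SOX motif together on the reverse strand, 1 base apart, from 75 to 62 bases upstream of the start. This joint word stood in 2 of 32851 promoter windows of the same length, both of them windows of Nanog, whereas the octamer motif alone stood in 4.12% and the SOX motif in 10.7% of all windows. The Pou5f1 window shown held neither, but a GC box from 45 to 40 bases upstream, a word found in 32.7% of windows. The short CTCF core AGGNGGC, found in 25.0% of windows, occurred 2 times in the Pou5f1 window, where 1 match overlaps the GC box, and 1 time in the Nanog window. A TATAAA box, present in 12.4% of windows, was found in neither. RefSeq gives each gene a second window, not shown. That of Nanog overlaps the first and holds the same joint word, and that of Pou5f1, at chr17:35508557-35508806 inside the gene, holds a SOX motif at positions -158 to -153 from its start and no octamer motif. These are matches of letters within 250 bases, not measured binding.

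Levels in cycling cells set the scale for what follows. In asynchronous CCNA-GFP cells Pou5f1 stood at 12.8, 8.25 and 15.1 TPM in replicates 1, 2 and 3, with a mean of 12.1 ± 3.50 (SD, n = 3). Nanog stood at 6.73, 5.58 and 9.01 TPM, with a mean of 7.11 ± 1.75 (SD, n = 3). Replicate 3 was the highest and replicate 2 the lowest for both genes, and the Nanog level was below that of Pou5f1 in each library. In asynchronous CTCF-AID cells without IAA the means were 10.4 ± 3.27 TPM for Pou5f1 and 8.24 ± 2.70 TPM for Nanog (SD, n = 3), with the same replicate at the top.

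In mitosis both genes kept a clear level of unspliced RNA. Pou5f1 measured 9.23, 4.95 and 11.1 TPM in mitotic CCNA-GFP cells and Nanog 3.45, 3.82 and 4.72 TPM. Each mitotic library was below the asynchronous library of its own replicate for both genes, while the Pou5f1 groups overlapped and the Nanog groups did not. At the same sum the Nanog groups overlapped too, with replicate 2 at 6.96 TPM in mitotic and 6.80 TPM in asynchronous cells. Asynchronous levels exceeded mitotic ones by 0.50 ± 0.13 for Pou5f1 (log2(TPM + 1) difference ± SE, adjusted p = 0.0022) and by 0.68 ± 0.14 for Nanog (adjusted p = 0.00029, limma with the replicate as a block), and 70.4% of all listed genes were called higher in this comparison. With every library at the same sum Pou5f1 turned to -0.05 and Nanog was at 0.19, so the direction for Pou5f1 rests on the deposited scale.

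The mitotic level of CTCF-AID cells was closer to the asynchronous one. Without IAA, mitotic Pou5f1 was at 11.7, 7.20 and 11.6 TPM against 11.2, 6.82 and 13.2 TPM in asynchronous cells, and the groups overlapped. Mitotic Nanog was at 5.85, 5.49 and 9.01 TPM against 6.60, 6.76 and 11.4 TPM, again overlapping, although each asynchronous library was above its own mitotic one. The differences were 0.02 ± 0.16 and 0.24 ± 0.14 (log2, ± SE), and neither passed the test (adjusted p = 0.95 and 0.19), in a comparison where 34.3% of all genes were called higher. With IAA they were 0.01 ± 0.16 and 0.29 ± 0.14 (adjusted p = 0.96 and 0.11), where 40.9% of all genes were called. Whether the lines differ in this respect was not tested.

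**Figure D1:**
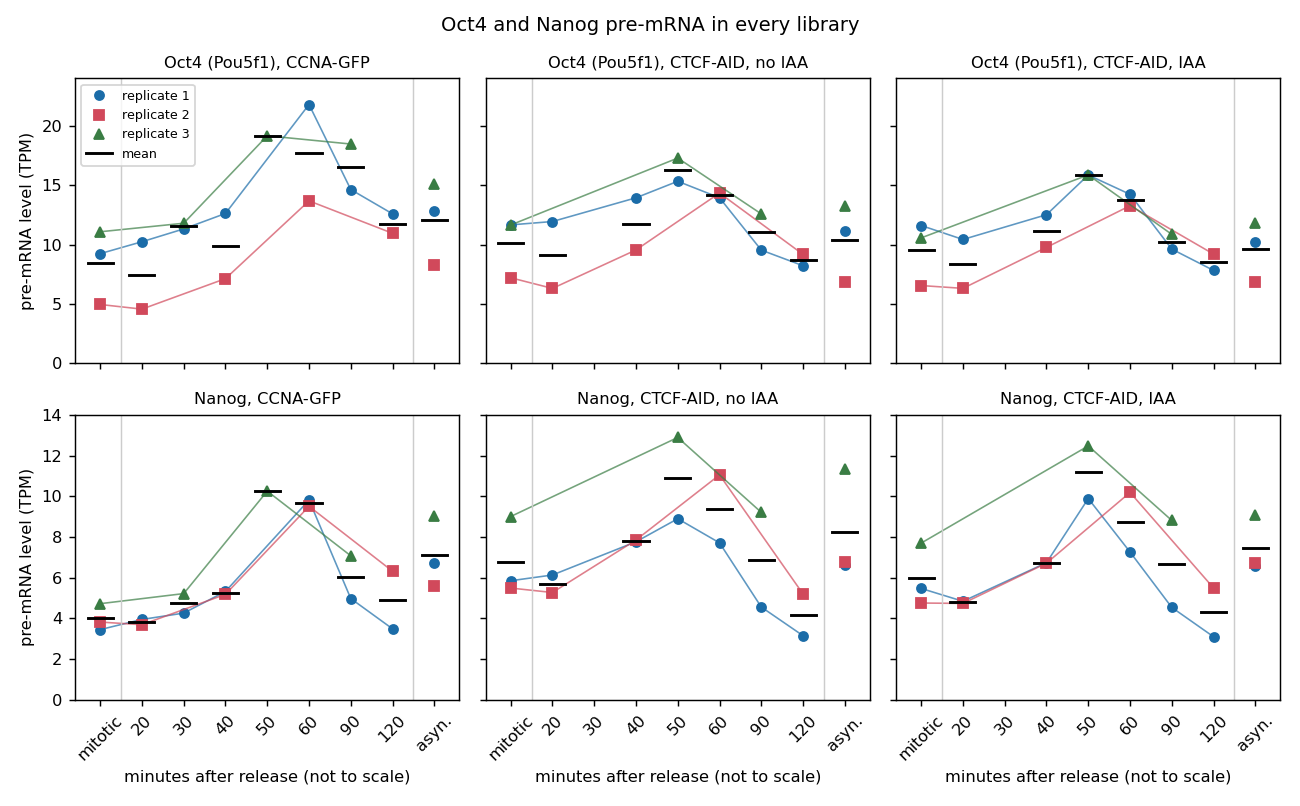
Pre-mRNA level in TPM (vertical axes from 0) of Oct4 and Nanog in each library of the 3 arms, by stage on the horizontal axis (evenly spaced, not to scale); colours and symbols mark replicates, thin lines join post-mitotic libraries of a replicate to its mitotic library, and black bars are stage means. Every replicate peaked at 50 or 60 min on this deposited scale, with the highest values at 21.8 TPM for Oct4 and 12.9 TPM for Nanog.

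After release, the question was when each gene came back and how far. In CCNA-GFP cells little moved at first. Pou5f1 was at 10.2 and 4.56 TPM at 20 min (replicates 1 and 2) and Nanog at 3.95 and 3.69 TPM, in the range of the mitotic libraries or just below it. At 30 min (replicates 1 and 3) Pou5f1 reached 11.3 and 11.8 TPM and Nanog 4.26 and 5.22 TPM, each above the mitotic library of its replicate, but no member was called at either time (adjusted p from 0.65 to 1.0). Over all genes, limma called 0% higher at 20 min, with 253 of 9911 at an unadjusted p under 0.05 in either direction, and 0.303% at 30 min.

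At 40 min both members had risen on the deposited scale. Pou5f1 was at 12.6 and 7.13 TPM (replicates 1 and 2), 0.40 ± 0.15 above mitosis (log2, ± SE, adjusted p = 0.029). Nanog was at 5.33 and 5.18 TPM, 0.45 ± 0.16 above mitosis (adjusted p = 0.024). Both turned at the same sum, to -0.15 and -0.057, and centred on the median they were at 0.057 and 0.10, with no call under either scaling. The call for Pou5f1 was lost without any 1 of the 3 replicates (adjusted p = 0.16, 0.13 and 0.053) and that for Nanog without replicate 1 or 3 (0.089 and 0.067). At this time 49.3% of all genes were called higher, and the median gene had moved by 0.26. The single library at 50 min, of replicate 3, held 19.2 TPM of Pou5f1 and 10.3 TPM of Nanog, against 11.1 and 4.72 TPM in its mitotic library, with no call made from 1 library.

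The rise culminated at 60 min in the replicates that have this stage. Pou5f1 measured 21.8 and 13.7 TPM (replicates 1 and 2), 2.35-fold its mitotic level on average, and Nanog 9.82 and 9.51 TPM, 2.31-fold, both as folds of TPM + 1 within a replicate. Every Nanog library at 60 min lay above every mitotic and asynchronous one, and those of Pou5f1 lay above every mitotic one and overlapped with the asynchronous ones. At the same sum both overlapped with mitosis, Nanog at 5.78 and 7.69 against 5.87 to 6.96 TPM and Pou5f1 at 12.8 and 11.1 against 9.02 to 16.1 TPM. How many of all genes separated in such a way was not counted, in this or any other comparison. The differences from mitosis were 1.20 ± 0.15 for Pou5f1 (adjusted p = 2.1e-07) and 1.22 ± 0.16 for Nanog (adjusted p = 4.3e-07), with 88.3% of all genes called higher and a median gene at 0.79. On log2(TPM + 1), 77.2% of all genes moved less than Pou5f1 and 78.2% less than Nanog. That scale compresses changes of genes at low levels. The all-gene median was 0.97 among genes averaging at least 1 TPM, and 1.30 with 0.1 added to the TPM in place of 1. The places of the members were not computed in these settings. Shares of genes that fell further than a member, given below, are on log2(TPM + 1) too. With each library centred on its median gene, the differences shrank to 0.32 and 0.34 (adjusted p = 0.045 and 0.049), and at the same sum they were -0.05 for Pou5f1 and 0.05 for Nanog, with no call. Both scalings bring the median gene close to mitosis, to -0.09 and 0.02 at 60 min.

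Both genes overshot the level of cycling cells at 60 min on the deposited scale. Against asynchronous CCNA-GFP cells, Pou5f1 was higher by 0.71 ± 0.15 (adjusted p = 0.00024) and Nanog by 0.54 ± 0.16 (adjusted p = 0.0046), in both replicates, where 67% of all genes were called higher. Neither excess was called under the other scalings, and at the same sum both turned to just below 0, at -0.0023 for Pou5f1 and -0.13 for Nanog. Within each replicate, the asynchronous level was first reached at 60 min in replicates 1 and 2, and at 50 min in replicate 3, for both genes. Replicates 1 and 2 have no 50-min library and replicate 3 has none at 40 or 60 min, so these times cannot be set against each other.

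After the peak the levels of both genes went down. Pou5f1 was at 14.6 and 18.5 TPM at 90 min (replicates 1 and 3) and at 12.6 and 10.9 TPM at 120 min (replicates 1 and 2). Nanog went to 4.97 and 7.08 TPM at 90 min and to 3.49 and 6.32 TPM at 120 min, where replicate 1 was back at its mitotic 3.45 TPM. Pou5f1 was called above mitosis at both times, by 0.69 ± 0.15 and 0.68 ± 0.15 (adjusted p = 0.00018 and 0.00024), as were 89.1% and 90.2% of all genes. Nanog was called at 90 min, by 0.44 ± 0.16 (adjusted p = 0.013), and not at 120 min, by 0.32 ± 0.16 (adjusted p = 0.059). The 120-min values rest on which replicate is in them: without replicate 1 they were 0.95 for Pou5f1 and 0.69 for Nanog, both called, and without replicate 2 they were 0.39 and 0.0069, neither called. The 90-min call for Nanog was lost without replicate 1 or 3 (0.41 and 0.40, adjusted p = 0.053 and 0.11). At the same sum the sign of all 4 differences turned, to -0.42 and -0.38 for Pou5f1 and to -0.57 and -0.64 for Nanog at 90 and 120 min, each called lower, as were 26.2% and 23.5% of all genes at these times under that scaling.

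Between 60 and 120 min Nanog fell, and this was called on the deposited scale and under both other scalings in all 3 arms. In CCNA-GFP it kept 35.5% of its 60-min level in replicate 1 and 66.4% in replicate 2, while Pou5f1 kept 57.7% and 80.0%. The log2 differences were -0.90 ± 0.17 for Nanog (adjusted p = 0.00044) and -0.52 ± 0.16 for Pou5f1 (adjusted p = 0.013), where 28.5% of all genes were called lower. Only 2.08% of all genes fell further than Nanog, and 11.6% further than Pou5f1. At the same sum Nanog was still lower, at -0.69 (adjusted p = 0.0026), and centred on the median at -0.76 (adjusted p = 0.0013), while Pou5f1 was at -0.33 (adjusted p = 0.090, not called) and -0.39 (adjusted p = 0.035). Without replicate 1 neither was called, with -0.52 for Nanog and -0.30 for Pou5f1 (adjusted p = 0.095 and 0.38).

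In order of mean level, Pou5f1 in CCNA-GFP ran from 50 and 60 min (19.2 and 17.7 TPM) through 90 min (16.6), asynchronous cells (12.1), 120 min (11.8), 30 min (11.6), 40 min (9.87) and mitosis (8.42) to 20 min (7.40). Of the neighbours with 2 or more libraries each, only 90 min and asynchronous cells were apart by more than the larger SD of the pair. Nanog ran from 50 and 60 min (10.3 and 9.66 TPM) through asynchronous cells (7.11), 90 min (6.03), 40 min (5.25), 120 min (4.90), 30 min (4.74) and mitosis (4.00) to 20 min (3.82), where 60 min from asynchronous cells and 30 min from mitosis were apart by more than that SD. The mean at 50 min is a single library without an SD, so its distance from 60 min was not judged. The Pou5f1 mean at 120 min stood above that at 40 min, and the Nanog mean below it, though by less than the larger SD. The means hold different replicates, so their order and gaps are descriptions. In replicate 1 Pou5f1 was at 9.23, 10.2, 11.3 and 12.6 TPM in mitosis and at 20, 30 and 40 min, another order than that of the means. At 90 min it stood at 14.6 against an asynchronous 12.8 TPM in replicate 1, and at 18.5 against 15.1 TPM in replicate 3. Both pairs were closer than the means. The orders below for CTCF-AID mix replicates too.

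In CTCF-AID cells without IAA the rise to 60 min was 0.59 for Pou5f1 and 0.61 for Nanog (log2), beside 1.20 and 1.22 in CCNA-GFP, without a test of the difference. Mitotic Pou5f1 of replicates 1 and 2 already stood above its asynchronous level, at 11.7 against 11.2 and 7.20 against 6.82 TPM, and Nanog reached the asynchronous level of its replicate at 40 min in both. At 20 min Pou5f1 was at 11.9 and 6.30 TPM and Nanog at 6.13 and 5.27 TPM (replicates 1 and 2), with no call among all genes (0%, 397 at an unadjusted p under 0.05 in either direction). At 40 min Pou5f1 was at 13.9 and 9.55 TPM and Nanog at 7.77 and 7.85 TPM. The difference from mitosis was called for Nanog, at 0.39 ± 0.16 (adjusted p = 0.038), and not for Pou5f1, at 0.32 ± 0.18 (adjusted p = 0.12), where 63.3% of all genes were called higher. With libraries at the same sum these turned to -0.17 without a call and to a called -0.26, where 36.7% of all genes were called lower, and the Nanog call was lost without replicate 2 or 3 (adjusted p = 0.061 and 0.080).

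The peak followed at 50 to 60 min. Pou5f1 was at 15.3 and 17.3 TPM at 50 min (replicates 1 and 3) and at 13.9 and 14.3 TPM at 60 min (replicates 1 and 2). Nanog was at 8.90 and 12.9 TPM at 50 min and at 7.71 and 11.1 TPM at 60 min. All 4 Pou5f1 libraries of these stages lay above the mitotic ones, whereas those of Nanog overlapped with the mitotic ones. At the same sum the Pou5f1 libraries, from 10.3 to 11.5 TPM, overlapped with the mitotic ones, from 11.2 to 16.1 TPM. At 50 min Pou5f1 was higher by 0.50 ± 0.18 (adjusted p = 0.013) and Nanog by 0.56 ± 0.16 (adjusted p = 0.0026), beside 79.1% of all genes, and at 60 min by 0.59 ± 0.18 (adjusted p = 0.0038) and 0.61 ± 0.16 (adjusted p = 0.0014), beside 84.8% of all genes. The rise to 60 min was uneven between replicates, 1.18-fold and 1.87-fold for Pou5f1 in replicates 1 and 2, and without replicate 2 neither was called at 60 min (0.30 and 0.36), against 0.94 and 0.87 without replicate 1. The median gene rose by 0.63, more than either member, and the direction turned with scale: at the same sum both were called lower than in mitosis, at -0.32 for Pou5f1 and -0.27 for Nanog (adjusted p = 0.019 and 0.015), beside 31.1% of all genes called lower, and centred on the median they were at -0.12 and -0.11 without a call. The 50-min differences turned in the same way, to -0.36 and -0.26 at the same sum (adjusted p = 0.0087 and 0.016, 33.6% of all genes called lower) and to -0.18 and -0.12 without a call when centred, and Pou5f1 at 50 min was not called without replicate 3 (0.49, adjusted p = 0.12).

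At 90 min Pou5f1 was back at 9.53 and 12.6 TPM and Nanog at 4.56 and 9.21 TPM (replicates 1 and 3), and at 120 min they were at 8.21 and 9.17 TPM and at 3.15 and 5.20 TPM (replicates 1 and 2). Both Nanog libraries at 120 min lay below every mitotic one. No member was called higher than in mitosis at either time, while 74.8% and 69.6% of all genes were. Nanog was called lower at 120 min, by -0.41 ± 0.16 (log2, adjusted p = 0.028), a call made for 3.15% of all genes in this comparison, and Pou5f1 was at -0.05 ± 0.18 (adjusted p = 0.80). The call for Nanog was lost without replicate 1 (-0.094) or replicate 3 (-0.40, adjusted p = 0.078) and was at -0.71 without replicate 2. Pou5f1 was at 0.35 without replicate 1 and -0.40 without replicate 2, called in opposite directions. At the same sum both were called lower at 120 min, at -0.92 for Nanog (adjusted p = 3.2e-08) and -0.59 for Pou5f1 (adjusted p = 0.00018), a call made for 25.9% of all genes under that scaling.

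From 60 to 120 min Nanog kept 40.8% and 47.0% of its level in replicates 1 and 2, and Pou5f1 58.9% and 63.9%. These were differences of -1.02 ± 0.18 (adjusted p = 4.2e-05) and -0.65 ± 0.19 (adjusted p = 0.0064), where 53.1% of all genes were called lower and 1.93% fell further than Nanog. The fall of Nanog was called in 10 of 10 settings of the fit, at -0.66 in the weakest. That of Pou5f1 was called in 8 of 10, at -0.27 in the weakest, and lost at the same sum and with no replicate block. Relative to asynchronous cells, the 60-min level was higher by 0.58 ± 0.18 for Pou5f1 and 0.37 ± 0.16 for Nanog (adjusted p = 0.0050 and 0.039, 75.2% of all genes called), an excess that turned to -0.15 and -0.34 at the same sum and was called for neither gene without replicate 2 (0.24 and 0.13), nor for Nanog without replicate 3 (0.42, adjusted p = 0.054). Pou5f1 means ran, from high to low, at 50, 60, 40 and 90 min, in asynchronous and mitotic cells, and at 20 and 120 min (16.3, 14.1, 11.7, 11.1, 10.4, 10.2, 9.12 and 8.69 TPM), and only 50 and 60 min were apart by more than the larger SD of the pair. Nanog means ran at 50 and 60 min, in asynchronous cells, at 40 and 90 min, in mitosis, and at 20 and 120 min (10.9, 9.38, 8.24, 7.81, 6.89, 6.78, 5.70 and 4.17 TPM), and only 20 and 120 min were so apart.

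**Figure D2:**
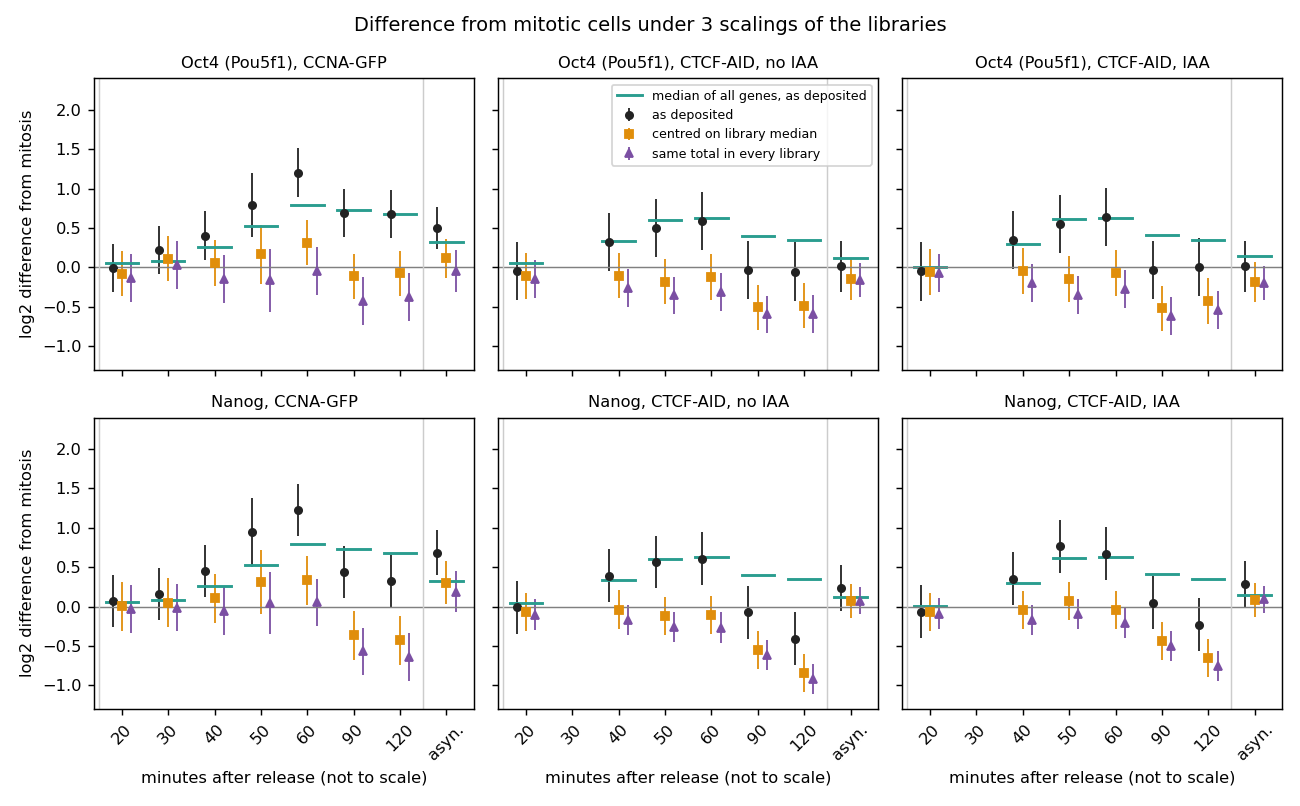
Difference of each stage from mitosis (vertical axis, log2 units, with 95% confidence intervals) for Oct4 and Nanog in the 3 arms, by stage in minutes after release, from limma with the replicate as a block; black circles use the deposited values, orange squares libraries centred on their median gene, purple triangles libraries at the same sum, and green bars mark the median of all genes on the deposited scale. At 60 min in CCNA-GFP the deposited differences of 1.20 and 1.22 stand above the all-gene median of 0.79. All of these are on log2(TPM + 1), which compresses changes of genes at low levels. At 120 min the deposited Nanog difference stands below the all-gene median in each arm. With libraries at the same sum, the 60-min differences turn below 0 in both CTCF-AID arms.

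With IAA, levels of both genes also peaked at 50 to 60 min. In these cells Pou5f1 was at 11.6, 6.54 and 10.6 TPM in mitosis, 15.9 and 15.9 TPM at 50 min (replicates 1 and 3), 14.2 and 13.3 TPM at 60 min and 7.82 and 9.19 TPM at 120 min (replicates 1 and 2). Nanog was at 5.47, 4.76 and 7.70 TPM, at 9.89 and 12.5 TPM, at 7.26 and 10.2 TPM and at 3.10 and 5.49 TPM at these stages. Replicate 1 was highest at 50 min for both genes and replicate 2, which has no 50-min library, at 60 min. At 20, 40 and 90 min the libraries held 10.4 and 6.31, 12.5 and 9.76, and 9.62 and 10.9 TPM of Pou5f1, and 4.84 and 4.74, 6.74 and 6.72, and 4.54 and 8.82 TPM of Nanog.

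With IAA, both members were called above mitosis at 50 and 60 min on the deposited scale and, with all replicates in the fit, at no other post-mitotic stage. Pou5f1 was higher by 0.55 ± 0.18 and 0.64 ± 0.18 (adjusted p = 0.0068 and 0.0021) and Nanog by 0.76 ± 0.16 and 0.67 ± 0.16 (adjusted p = 0.00014 and 0.00057). At 60 min these values ran from 0.40 to 0.96 and from 0.43 to 0.95 when 1 replicate was left out, low without replicate 2 and high without replicate 1. At 120 min Pou5f1 went from -0.39 without replicate 2 to 0.48 without replicate 1, called in opposite directions, and Nanog was called lower without replicate 2 (-0.59) and was at 0.16 without replicate 1. Over all genes, limma called 0%, 58.7%, 78.2%, 82.2%, 73.8% and 68.2% higher at 20, 40, 50, 60, 90 and 120 min, with 149 at an unadjusted p under 0.05 in either direction at 20 min. At the same sum the 60-min differences turned to -0.27 for Pou5f1 (adjusted p = 0.039) and -0.20 for Nanog (adjusted p = 0.053), and the 50-min ones to -0.35 (adjusted p = 0.0096) and -0.098 (adjusted p = 0.34). Under that scaling 33.2% and 35.5% of all genes were called lower at 60 and 50 min. Without replicate 3 the 50-min call for Pou5f1 was lost (0.60, adjusted p = 0.060). From 60 to 120 min Nanog kept 42.6% and 53.9% and Pou5f1 54.9% and 69.3%, differences of -0.90 ± 0.18 and -0.64 ± 0.19 (adjusted p = 0.00015 and 0.0072) beside 50.8% of all genes called lower, and 4.12% of all genes fell further than Nanog. Over 10 settings of the fit Nanog was called in 10, at -0.55 in the weakest. Pou5f1 was called in 8, at -0.27 in the weakest, and its call was lost at the same sum and with no replicate block. The 60-min level was above that of asynchronous cells by 0.63 ± 0.18 for Pou5f1 and 0.38 ± 0.16 for Nanog (adjusted p = 0.0027 and 0.034, 72.2% of all genes called), and by -0.07 and -0.29 at the same sum, and Nanog was not called without replicate 2 or 3 (0.21 and 0.33). The order of the means was as without IAA for Nanog, from 11.2 TPM at 50 min to 4.29 TPM at 120 min, and for Pou5f1 apart from 120 and 20 min at the end, at 8.51 and 8.37 TPM. In these orders 50 from 60 min for both genes, and 60 from 40 min for Pou5f1, were apart by more than the larger SD of the pair.

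IAA acts on the protein, so the Ctcf pre-mRNA gives no check of the depletion. It ran from 5.74 to 7.18 TPM over the mitotic CTCF-AID libraries and was higher with IAA in 16 of 18 pairs of the same stage and replicate, with a mean post-mitotic difference of 0.10 ± 0.08 (log2, ± SE, adjusted p = 1.0). Compared stage by stage at an adjusted p under 0.1 and an absolute log2 difference over 0.2, neither member was called at any of the 8 stages. The Pou5f1 differences, IAA minus no IAA, ran from -0.09 to -0.03 over the stages and those of Nanog from -0.21 at 20 min to 0.05 at 50 min, with SEs of 0.25 to 0.32. Over all genes 0% were called in mitosis, at 20 and at 40 min (23, 31 and 85 at an unadjusted p under 0.05), and 0.283%, 0.225%, 0.733%, 0.586% and 1.01% at 50, 60, 90 and 120 min and in asynchronous cells. With the replicate block more genes were called, and again neither member. From 50 min to asynchronous cells, in that order, these were 24, 18, 46, 41 and 92 genes higher and 77, 85, 129, 105 and 157 lower.

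Pooled over the 6 post-mitotic stages, the IAA effect was -0.06 ± 0.12 for Pou5f1 (95% confidence interval from -0.31 to 0.20) and -0.07 ± 0.13 for Nanog (from -0.34 to 0.19), and 1.72% of all genes were called. This fit had no replicate block. With the block both SEs were smaller and neither member was called, while 46 genes were called higher and 171 lower. Among the 18 pairs of the same stage and replicate, Nanog was lower with IAA in 16 and Pou5f1 in 11, with medians of -0.08 for both, the largest being -0.30 and -0.20. Such pairs were not counted over all genes. The pooled effect had an all-gene median of -0.02, and 12.9% of all genes lay below Nanog and 21.4% below Pou5f1. The pairs carry only 3 replicate numbers and are not independent. The rise from mitosis to 60 min differed between the arms by 0.05 ± 0.25 for Pou5f1 and 0.06 ± 0.23 for Nanog (adjusted p = 1.0), a comparison in which 0.156% of all genes were called, and its intervals ran from -0.47 to 0.56 and from -0.41 to 0.53.

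**Figure D3:**
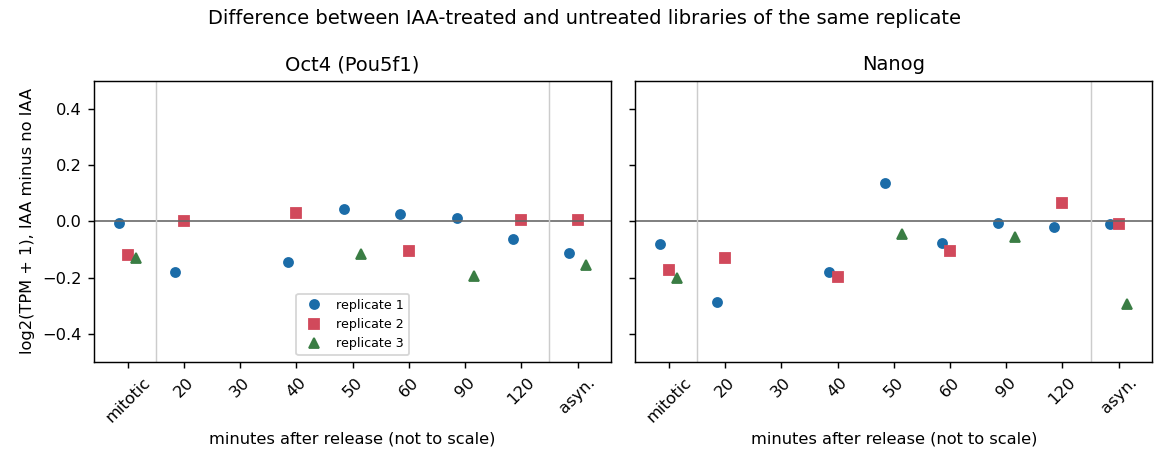
Difference between the IAA-treated and the untreated CTCF-AID library of the same stage and replicate (vertical axis, log2(TPM + 1) units) for Oct4 and Nanog, by stage in minutes after release; symbols and colours mark replicates and the horizontal line is no difference. All pairs lie between -0.30 and 0.14, and for Nanog 16 of 18 lie below 0, a count not made over all genes.

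A gene's place among the genes of its own library does not depend on how libraries are scaled. Pou5f1 stood at or above the 95th percentile of the listed genes in every library of both lines, and its mean place in CCNA-GFP was 98.1 in mitosis, 98.3 at 60 min and 96.9 at 120 min. Nanog held a mean place of 92.9 in mitosis and at 60 min in CCNA-GFP and of 78.8 at 120 min, where replicates 1 and 2 were at 69.3 and 88.2. Without IAA in CTCF-AID its mean place went from 95.2 in mitosis and 91.9 at 60 min to 78.4 at 120 min, and with IAA from 94.1 and 91.0 to 79.5. In every arm both 120-min libraries of Nanog stood lower than all its mitotic, 20-min, 40-min and asynchronous libraries. In asynchronous cells it had a mean place of 95.1, 96.3 and 95.9 in the 3 arms, above every 120-min library. The 90-min libraries of CCNA-GFP stood at 78.5 and 83.6 (replicates 1 and 3), below the 120-min library of replicate 2, so the mean at 120 min was the lowest of the course through replicate 1.

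**Figure D4:**
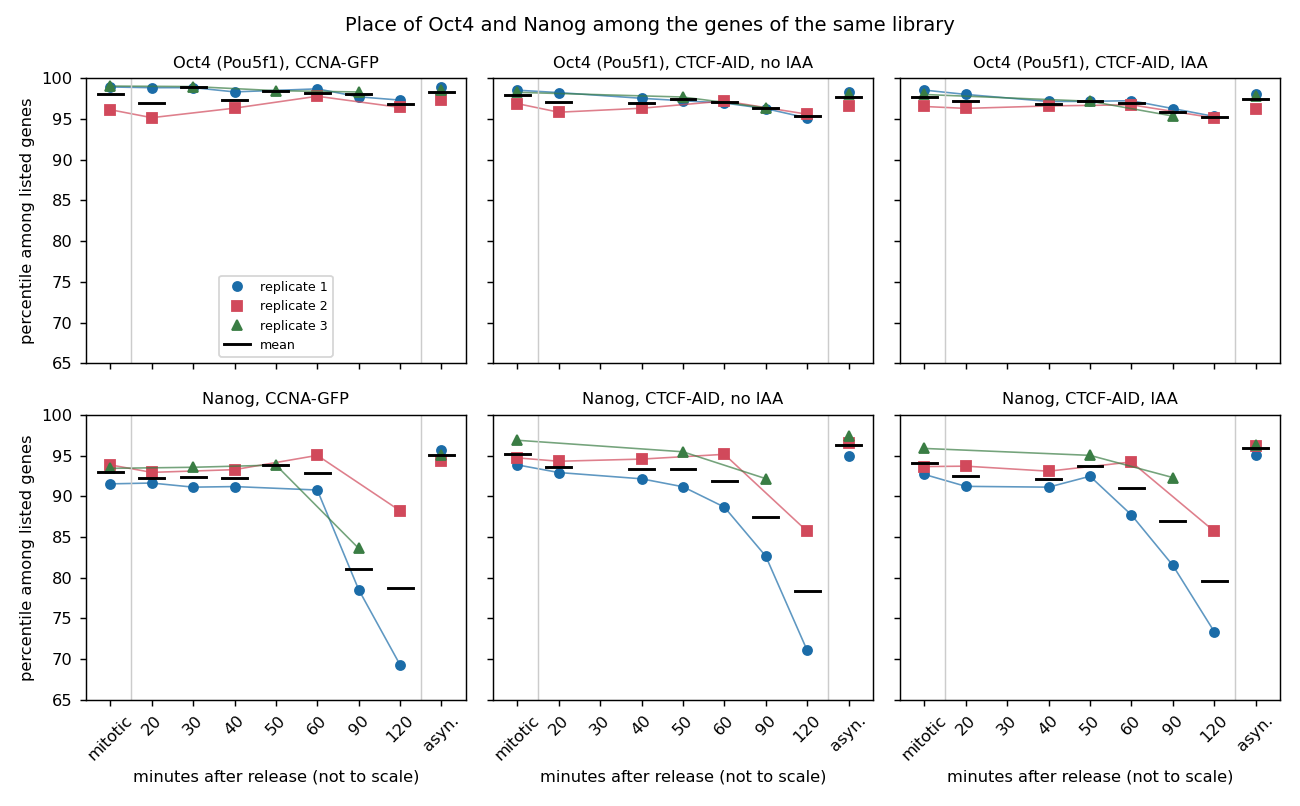
Place of Oct4 and Nanog among all listed genes of the same library (vertical axis, percentile, drawn from 65 to 100), by stage in the 3 arms; symbols and colours mark replicates, thin lines join the mitotic and post-mitotic libraries of a replicate, and black bars are stage means. Oct4 stays between 95.1 and 99.1, while Nanog goes from at least 87.7 at 60 min to between 69.3 and 88.2 at 120 min.

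The plain ratio of Nanog to Pou5f1 TPM within a library is likewise free of scaling, while the pseudocount used in its tests brings some dependence back. The plain ratio was 0.374, 0.772 and 0.426 in mitotic CCNA-GFP cells and 0.524, 0.676 and 0.596 in asynchronous ones, so libraries of a stage differed widely. As log2 of the ratio of TPM + 1, the libraries at 40 to 60 min differed from mitotic ones by 0.08 in CCNA-GFP (5 against 3 libraries, two-sided exact permutation p = 0.75), by -0.02 without IAA (6 against 3, exact permutation p = 0.95) and by 0.01 with IAA (6 against 3, exact permutation p = 0.93), each 0.95 after adjustment over the 3 tests. Without a pseudocount the differences were 0.15, -0.0084 and 0.032 (exact permutation p = 0.64, 0.93 and 0.83). Values of the compared groups overlapped in each arm. The smallest p these designs can give is 0.036 with 5 against 3 libraries and 0.024 with 6 against 3.

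At 120 min the ratio was lower than at 60 min in both replicates that have these stages. From 60 to 120 min it went from 0.450 to 0.277 and from 0.695 to 0.577 in CCNA-GFP, from 0.553 to 0.383 and from 0.771 to 0.567 without IAA, and from 0.510 to 0.396 and from 0.768 to 0.597 with IAA (replicates 1 and 2). Replicate 2 was above replicate 1 at both times in each arm, so the groups overlapped. A comparison chosen after these values were seen, 90 and 120 min against 40 to 60 min, gave log2 differences of -0.46, -0.26 and -0.16 in the 3 arms, with exact permutation p = 0.095, 0.16 and 0.40 (adjusted 0.24, 0.24 and 0.40). Without a pseudocount they were -0.54, -0.34 and -0.23 (exact permutation p = 0.095, 0.13 and 0.33). That test mixes replicates, so the spread between them enters it. Within replicates 1 and 2 the log2 ratio changed from 60 to 120 min by -0.52 and -0.22 in CCNA-GFP, by -0.37 and -0.37 without IAA and by -0.22 and -0.30 with IAA, lower in 6 of 6 pairs. Without a pseudocount these changes were -0.70 and -0.27, -0.53 and -0.44, and -0.37 and -0.36. In replicate 3, from 50 to 90 min, it changed by -0.43, -0.015 and 0.051. The comparison of 90 and 120 min with 40 to 60 min was therefore repeated with stage labels exchanged only among libraries of the same replicate, again after the values had been seen. It gave differences of -0.37 in CCNA-GFP (two-sided exact permutation p = 0.028 over 36 arrangements), -0.26 without IAA (exact permutation p = 0.017 over 60) and -0.18 with IAA (exact permutation p = 0.050 over 60), or 0.042, 0.042 and 0.050 after adjustment over the 3 arms. The values in CCNA-GFP and without IAA are the smallest these designs can give, and all p-values were the same without a pseudocount, with differences of -0.44, -0.34 and -0.25. The exchanged libraries are successive time points of 3 replicates. Both forms of the test therefore treat time points as units, which they are not independently of each other. Since the fall had also been seen in these libraries first, these p-values describe it and give no independent support. The arms with and without IAA share replicate numbers, taken here as the same experiments. Done in the same way, 40 to 60 min against mitosis gave 0.056, 0.048 and 0.088 (exact permutation p = 0.56, 0.33 and 0.29).

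**Figure D5:**
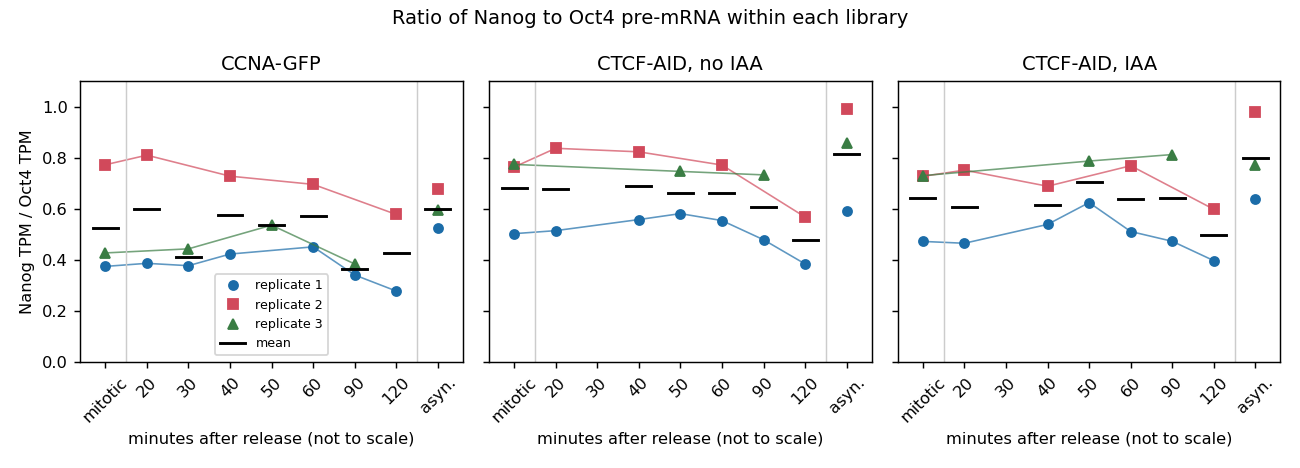
Ratio of Nanog to Oct4 TPM within each library (vertical axis from 0), by stage in the 3 arms; symbols and colours mark replicates, thin lines join the mitotic and post-mitotic libraries of a replicate, and black bars are stage means. Replicate 2 starts at 0.772 in mitotic CCNA-GFP cells against 0.374 for replicate 1, and both replicates are lower at 120 than at 60 min in every arm.

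Factors that work with the core trio form the first list set beside the members. Of 16 listed partners, among them Esrrb, Klf4 and Sall4, 15 were called above mitosis at 60 min in CCNA-GFP, 13 without and 12 with IAA, with list medians of 1.03, 0.88 and 0.81 beside all-gene medians of 0.79, 0.63 and 0.63. Because log2(TPM + 1) compresses low levels, the all-gene medians were higher, at 0.97, 0.74 and 0.74, among genes averaging at least 1 TPM. From 60 to 120 min 2, 8 and 7 of them were called lower and 1, 0 and 0 higher, with medians of -0.09, -0.41 and -0.39 beside -0.11, -0.27 and -0.25 over all genes. These counts stand beside 88.3%, 84.8% and 82.2% of all genes called higher at 60 min and 28.5%, 53.1% and 50.8% called lower and 9.6%, 7.31% and 7.61% called higher after it. The 1 called higher, named after its value was seen, was Nr0b1 (DAX1), an orphan nuclear receptor, at 0.64 ± 0.19 (adjusted p = 0.011). At the same sum 3, 4 and 4 partners were called above and 2, 4 and 4 below mitosis at 60 min, beside 36.4%, 39.4% and 40.7% of all genes above and 33.3%, 31.1% and 33.2% below. That scaling gave 1, 3 and 3 partners called lower and 2, 1 and 1 higher from 60 to 120 min, with medians of 0.08, -0.08 and -0.06, beside 21.7%, 26.5% and 27.2% of all genes lower and 24.4%, 25.6% and 26.6% higher. The 3 with the highest asynchronous levels are Rif1, a factor of replication timing, and the zinc finger proteins Zscan10 and Klf5. Klf5 rose by 1.72 ± 0.17 to 60 min in CCNA-GFP, called at the same sum too (0.55 ± 0.12, adjusted p = 0.0014), and was at -0.09 ± 0.18 from there to 120 min (adjusted p = 0.74), and without IAA it was at -0.0044 ± 0.23 (adjusted p = 0.99). Zscan10 rose by 1.08 ± 0.14 (-0.14 at the same sum, not called) and was then at 0.36 ± 0.15 (adjusted p = 0.057). Rif1 rose by 0.87 ± 0.14, a direction that turned to a called -0.38 at the same sum, and was then at -0.10 ± 0.14 (adjusted p = 0.62) in CCNA-GFP, and fell by 0.37 ± 0.15 without IAA (adjusted p = 0.034), which at the same sum was -0.0012 and not called.

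Genes known as targets of the trio had 9 of 10 members called above mitosis at 60 min in each arm, with medians of 1.12, 0.75 and 0.76, beside 88.3%, 84.8% and 82.2% of all genes called and all-gene medians of 0.79, 0.63 and 0.63. Among genes averaging at least 1 TPM the all-gene medians were 0.97, 0.74 and 0.74. From 60 to 120 min 2, 4 and 4 of 10 were called lower and 1, 0 and 0 higher, beside 28.5%, 53.1% and 50.8% of all genes lower and 9.6%, 7.31% and 7.61% higher. With the libraries at the same sum, 3, 4 and 3 of 10 were above and 0, 2 and 3 below mitosis at 60 min, where 36.4%, 39.4% and 40.7% of all genes were above and 33.3%, 31.1% and 33.2% below. Under this scaling 0, 3 and 2 were lower and 3, 4 and 5 higher at 120 than at 60 min, where 21.7%, 26.5% and 27.2% of all genes were lower and 24.4%, 25.6% and 26.6% higher. Zfp42 (Rex1), the most abundant of them with 33.1 TPM in asynchronous CCNA-GFP cells, rose by 1.1 ± 0.15 to 60 min (-0.19 at the same sum, not called) and was at 0.27 ± 0.15 after it (adjusted p = 0.17). Dppa5a, an RNA-binding protein of ES cells, rose by 1.90 ± 0.14 and Utf1, a chromatin-associated factor, by 1.44 ± 0.21, and at the same sum they were at 0.66 (called) and 0.24 (not called). Without IAA Dppa5a fell by 0.91 ± 0.20 from 60 to 120 min (adjusted p = 0.00048), and in CCNA-GFP it was at -0.20 ± 0.14 (adjusted p = 0.28), whereas Nanog was called lower in both, without a test between the genes. Over the same interval Utf1 was at 0.32 ± 0.23 in CCNA-GFP (adjusted p = 0.29), at -0.19 ± 0.21 without IAA (adjusted p = 0.45) and at 0.14 ± 0.21 with IAA (adjusted p = 0.58).

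Repressors of the trio's genes had 2 of 4 listed, Tcf7l1, the Wnt-pathway factor that lowers Nanog transcription, and Nr6a1 (GCNF), a nuclear receptor that silences Pou5f1 on differentiation. In CCNA-GFP both rose by 60 min on the deposited scale, Tcf7l1 by 0.38 ± 0.15 (adjusted p = 0.027) and Nr6a1 by 0.80 ± 0.13 (adjusted p = 6.4e-06), while at the same sum Tcf7l1 turned to a called -0.73 and Nr6a1 to 0.03 without a call. Both rose further to 120 min, by 0.63 ± 0.16 (adjusted p = 0.0051) and 0.42 ± 0.14 (adjusted p = 0.021), where 9.6% of all genes were called higher, and these calls held under both other scalings. In CTCF-AID only Nr6a1 was called above mitosis at 60 min, by 0.58 ± 0.11 without and 0.47 ± 0.11 with IAA (adjusted p = 3.1e-05 and 0.00037). These calls stand beside 84.8% and 82.2% of all genes called higher there, and 88.3% in CCNA-GFP. At the same sum Nr6a1 turned to -0.093 and -0.21 without a call. Tcf7l1 was at 0.36 ± 0.17 and 0.084 ± 0.17 (adjusted p = 0.056 and 0.65), which turned to a called -0.46 and -0.74 at the same sum. Neither was called between 60 and 120 min in CTCF-AID, with 0.18 ± 0.19 and 0.04 ± 0.12 without IAA and 0.33 ± 0.19 and 0.06 ± 0.12 with IAA, but both were called higher at 120 min in each arm at the same sum (list medians of 0.42 and 0.49, 25.6% and 26.6% of all genes called higher) and centred on the median (0.39 and 0.48, 30% and 31.6% of all genes called higher).

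Of 28 other POU and SOX genes, 6 are listed in CCNA-GFP and 8 in CTCF-AID. In CCNA-GFP all 6 were called higher at 60 min, with a median of 0.71, below the all-gene median of 0.79. In CTCF-AID 8 and 6 of 8 were called, with medians of 0.68 without and 0.64 with IAA, above all-gene medians of 0.63 and 0.63. Among genes averaging at least 1 TPM the all-gene medians there were 0.74 and 0.74, above those of the list. Of all genes, 88.3%, 84.8% and 82.2% were called higher in the 3 arms. At the same sum 2, 4 and 3 of the list were called above and 4, 3 and 3 below mitosis. Under that scaling 36.4%, 39.4% and 40.7% of all genes were above and 33.3%, 31.1% and 33.2% below. Pou2f1 (OCT1), the widely expressed relative of OCT4, rose by 0.88 ± 0.13 to 60 min in CCNA-GFP, which turned to a called -0.17 at the same sum, and fell by 0.38 ± 0.13 after it (adjusted p = 0.032), and fell by 0.85 ± 0.13 without IAA (adjusted p = 6.7e-06), and both falls were called under the other scalings too. Sox12 and Sox13, relatives of SOX2 in the HMG-box family, rose by 0.26 ± 0.12 and 0.38 ± 0.09 to 60 min in CCNA-GFP and were at 0.0031 ± 0.13 and -0.0058 ± 0.10 after it (adjusted p = 0.99 and 0.97), and at the same sum their 60-min differences turned to -0.99 and -0.20, both called lower.

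Of 19 markers of other lineages, 5 are listed in CCNA-GFP and 7 in CTCF-AID, and the endoderm factors Gata4, Gata6, Sox17 and Foxa2 have no row in either table. Their summed level ran from 1.72 to 4.92 TPM in mitotic and from 8.14 to 14.8 TPM at 60 min in CCNA-GFP, in CTCF-AID without IAA from 3.96 to 6.49 TPM and from 12.1 to 29.6 TPM, and with IAA from 4.05 to 7.21 TPM and from 16.5 to 30.9 TPM. The summed level of Pou5f1 and Nanog at 60 min ran from 23.2 to 31.6, from 21.7 to 25.4 and from 21.5 to 23.5 TPM in these arms, so in CTCF-AID the ranges overlapped. The highest were Tfap2c, a trophoblast and germ-line factor, and Nes, nestin of neural precursors, which rose by 1.33 ± 0.16 and 1.01 ± 0.16 to 60 min in CCNA-GFP and were at 0.37 (called) and 0.20 (not called) at the same sum. Tfap2c averaged 7.11 and 10.3 TPM at 60 min without and with IAA, beside Nanog at 9.38 and 8.73 TPM. T (brachyury), a mesoderm factor and next by level, was at 0.07 ± 0.12 (adjusted p = 0.60), and at -0.31 at the same sum without a call. Its level was uneven between replicates, at 0.61 ± 0.85 TPM (SD, n = 3) in the asynchronous CCNA-GFP cells that set its place. Without IAA it averaged 1.34 ± 1.65 TPM at 60 min (SD, replicates 1 and 2) and 0.15 ± 0.05 TPM at 50 min (SD, replicates 1 and 3). Of these stages only 60 min holds replicate 2, so the T means rest on which replicates are in them. The summed level of the list moved with the members, and its part in the members' change was not tested. Of 5 fibroblast markers none is listed in CCNA-GFP and 2 are in CTCF-AID, at a summed 0.146 to 0.473 TPM in mitotic and 1.87 to 2.95 TPM in 60-min libraries. Both were called higher at 60 min and lower from 60 to 120 min, with and without IAA and also at the same sum. Of all genes, 84.8% without and 82.2% with IAA were called higher and 53.1% and 50.8% then lower, or 39.4% and 40.7% higher and 26.5% and 27.2% lower at the same sum. The part of these markers in the members' change was not tested. Of all these lists, Tfap2c alone was called for the mean IAA effect, at 0.49 ± 0.11 (adjusted p = 0.0078), a call made for 1.72% of all genes.

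The nearest listed genes are Tcf19, 1961 bases beyond Pou5f1 on the opposite strand, and H2-Q7, 62244 bases before it and listed in CTCF-AID only. Tcf19, a cell-cycle-linked factor, rose by 1.01 ± 0.13 to 60 min in CCNA-GFP (0.35 at the same sum, called, and 0.13 centred, not called) and was at 0.10 ± 0.13 from 60 to 120 min (adjusted p = 0.59), without a test of the difference between the 2 genes. H2-Q7, a class I histocompatibility gene at a mean of 0.105 and 0.197 TPM in mitosis without and with IAA, was at 0.35 ± 0.21 and 0.49 ± 0.21 at 60 min (adjusted p = 0.13 and 0.038, only the second called) and at -0.08 ± 0.23 and -0.22 ± 0.23 after it (adjusted p = 0.78 and 0.42). The call with IAA was lost at the same sum (0.21) and centred on the median, where it turned to -0.22. Around Nanog stand Slc2a3, a glucose transporter 13175 bases beyond it, and Dppa3 (Stella), 77216 bases before it and listed in CTCF-AID only. Slc2a3 rose by 1.00 ± 0.12 to 60 min in CCNA-GFP (0.08 at the same sum, not called) and was at -0.32 ± 0.13 after it (adjusted p = 0.060). In CTCF-AID it rose by 0.51 ± 0.10 without and 0.46 ± 0.10 with IAA, which turned to a called -0.25 and -0.30 at the same sum. Later, from 60 to 120 min, it fell there by 0.62 ± 0.10 (adjusted p = 2.7e-05) and 0.50 ± 0.10 (adjusted p = 0.00030), called under both other scalings too, at -0.31 and -0.20 at the same sum and -0.34 and -0.22 centred. Dppa3 rose by 0.84 ± 0.14 to 60 min without IAA and fell by 0.86 ± 0.15 after it (adjusted p = 6.1e-05), beside the -1.02 of Nanog, and with IAA by 1.05 ± 0.14 and 0.89 ± 0.15. Brought to the same sum, its rise was 0.48 and 0.66 and its later difference -0.65 and -0.66 in these arms, all called, and centred on the median the rise without IAA was 0.12 and not called.

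The genes most alike in course were sought by Pearson's r over stage means relative to the median gene, 9 in CCNA-GFP and 16 in CTCF-AID, among 6603 other genes that average 1 TPM or more in each table. For Pou5f1 they were Cops3 (r = 0.87 and 0.95), Cdc37l1 (0.95 and 0.87) and Cdc5l (0.84 and 0.93), a COP9 signalosome subunit, a chaperone cofactor and a splicing factor. For Nanog they were Pfkl (0.89 and 0.90), Kat7 (0.89 and 0.92) and Kif11 (0.89 and 0.91), the liver-type phosphofructokinase, a histone acetyltransferase and the mitotic kinesin Eg5. Between Pou5f1 and Nanog r was 0.64 and 0.91, which put Nanog at place 130 of the list of Pou5f1 and Pou5f1 at place 168 of the list of Nanog, by the lower of the 2 values. These points share libraries and replicates, so the coefficients are descriptions. Kif11 fell by 0.71 ± 0.13 from 60 to 120 min in CCNA-GFP (adjusted p = 0.00028), the fall of these 6 closest to that of Nanog, and was at -0.52 at the same sum and -0.58 centred, both called.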

How the data were processed

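Pre-mRNA was measured by ribo-depleted, stranded, paired-end RNA-seq in 55 libraries. Per the study's methods and processing notes, the authors aligned reads to mm10 with STAR, quantified them with RSEM on Gencode vM12 to which a pre-mRNA isoform per gene had been added, and deposited TPM of that isoform for genes over 0.5 TPM in asynchronous or post-mitotic samples. Depth cannot be recovered from TPM, so counting error is unknown, and errors are the spread between replicates.

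From the deposited TPM, log2(TPM + 1) was fitted over all genes of a table with limma 3.58.1 (lmFit, eBayes with a trend) in R 4.3.3, with Benjamini-Hochberg adjustment within each comparison. Stages were compared within replicates (block term, adjusted p under 0.05), as the study's methods take folds within replicates, and IAA without a block at an adjusted p under 0.1 and an absolute log2 difference over 0.2. Equal replicate numbers were taken to mark the same experiment, which the labels do not state across the arms with and without IAA. Same-numbered libraries deviated together from their stage means, with r over 0.1 for all 20 stage pairs of CCNA-GFP (lowest 0.13) and all 88 group pairs of CTCF-AID (lowest 0.11). The headers of asynchronous CTCF-AID columns are garbled and were read as asynchronous. The ratio was tested by exact permutation (scipy 1.17.1) for 1 pair of genes in 3 arms, not 3 pairs, since Sox2 has no row, first over all libraries compared and then with labels exchanged only within replicates, all exchanges enumerated. Without recorded counts the study's count test was not used. On simulated data, 98.0% of 200 genes changed by 1 at 60 min in CCNA-GFP were called, and 30.5% of 200 changed by 0.5 under IAA at 20 min. At 30 min in CCNA-GFP 64.0% of 200 changed by 0.5 were called. False calls made up 4.39%, 6.19% and 6.64% of the calls at 60 min in CCNA-GFP, without IAA and with IAA. Only 200 genes changed in each simulation, whereas most genes were called at 60 min in the data.

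The genes given with values are the members, Ctcf, the 3 most abundant of each list in asynchronous CCNA-GFP cells, the nearest listed neighbours and the 3 most alike genes, with Nr0b1 added after its value was seen, and other genes are named as examples of a list or as not listed. The members and lists were chosen with earlier results of these data known. Alternatives were other pseudocounts, scalings, filters and blocks, and leaving out each replicate. Annotation is Gencode vM21 and RefSeq on GRCm38, the assembly mm10 names.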

Additional observations from a re-analysis of the deposited data

How the results depend on the processing

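Neither scale nor depth is settled by these tables, so calls that rest on the deposited scale are given again here. Of 12 pairs of a gene and a stage in each arm, 7, 5 and 4 were called above mitosis in CCNA-GFP, without IAA and with IAA. These counts were 0, 0 and 0 at the same sum, 2, 0 and 0 centred on the median, and 4, 1 and 2 with no replicate block. At 60 min, of 9911, 10237 and 10237 genes, 3607, 4030 and 4162 were called higher at the same sum. Centred on the median they were 3057, 2902 and 3110, and with no replicate block 7740, 7450 and 7208. The fall from 60 to 120 min, called for 2 of 2 genes in each arm, was called for 1, 1 and 1 at the same sum and for 1, 1 and 1 with no replicate block. Of all genes, 2148, 2717 and 2786 were then called lower at the same sum, and 1195, 3396 and 3387 with no replicate block. The excess at 60 min over asynchronous cells, called for 2 of 2 in each arm, was called for 0 in each arm at the same sum, centred on the median, or with no replicate block, and for 1 without IAA at a pseudocount of 0.1. In this comparison 3466, 3837 and 3780 of all genes were called higher at the same sum. Centred on the median they were 3325, 3437 and 3496, and with no replicate block 5237, 6380 and 6073. Leaving out 1 replicate gave 4 to 5, 2 to 7 and 3 to 7 calls above mitosis, 0 to 2 calls of the fall in CCNA-GFP (0 without replicate 1), and 0 to 2 calls without IAA (0 without replicate 2) and 1 to 2 with IAA of the excess. A lone library left at a stage is assumed to vary like the others. No member was called for IAA under any alternative, the replicate block included, where the mean effects had SEs of 0.08 for Pou5f1 and 0.07 for Nanog.

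These log2 differences changed sign. At the same sum Pou5f1 in CCNA-GFP was at -0.048 at 60 min, -0.38 at 120 min and -0.045 in asynchronous cells against mitosis, and at -0.0023 at 60 min against asynchronous cells. Nanog in CCNA-GFP was at -0.64 at 120 min against mitosis and -0.13 at 60 min against asynchronous cells. Without IAA Pou5f1 was at -0.32 at 60 min and -0.16 in asynchronous cells against mitosis and -0.15 at 60 min against asynchronous cells, and Nanog at -0.27 and -0.34 in the first and last of these. With IAA Pou5f1 was at -0.27 at 60 min, -0.54 at 120 min and -0.20 in asynchronous cells against mitosis and -0.073 at 60 min against asynchronous cells, and Nanog at -0.20 and -0.29 at 60 min against mitotic and asynchronous cells. Centred on the median, Pou5f1 in CCNA-GFP was at -0.073 and Nanog at -0.43 at 120 min. Without IAA Pou5f1 was at -0.12 at 60 min and -0.15 in asynchronous cells, and Nanog at -0.11 at 60 min and -0.18 against asynchronous cells. With IAA Pou5f1 was at -0.069 at 60 min, -0.42 at 120 min and -0.19 in asynchronous cells, and Nanog at -0.041 at 60 min and -0.13 against asynchronous cells. With no replicate block Pou5f1 with IAA was at -0.12 at 120 min.

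Without 1 replicate, Pou5f1 at 120 min ran from -0.40 to 0.35 without IAA and from -0.39 to 0.48 with IAA, Nanog at 120 min with IAA from -0.59 to 0.16, and asynchronous Pou5f1 from -0.062 to 0.057 and from -0.054 to 0.10 in these arms. The place among listed genes went from mitosis to 60 min by -0.040 percentiles for Nanog in CCNA-GFP, by -0.81 and -3.24 for Pou5f1 and Nanog without IAA and by -0.70 and -3.11 with IAA. These compare means of 3 mitotic with 2 later libraries. Within replicates 1 and 2 (replicate block, added after the values were seen) Nanog in CCNA-GFP changed by -0.76 and 1.17, a mean of 0.21, so the negative sign there comes from unpaired means. The other mean changes within replicates were -0.63 and -2.37 for Pou5f1 and Nanog without IAA and -0.55 and -2.20 with IAA, each down in replicate 1 and up in replicate 2. The ratio's difference between 40 to 60 min and mitosis ran from -0.012 to 0.13 in CCNA-GFP and from -0.055 to 0.037 without IAA when 1 replicate was left out, and was 0.036 without IAA within replicates (replicate block), or 0.048 with labels exchanged within replicates. The ratio's difference between 90 and 120 min and 40 to 60 min, a comparison chosen after the fall of the ratio in these pairs was seen, did not pass over all libraries (adjusted exact permutation p = 0.24, 0.24 and 0.40 in the 3 arms). With that exchange, chosen after the same values, it was at -0.37 in CCNA-GFP and -0.26 without IAA (adjusted exact permutation p = 0.042 in both), which describes the same fall and is no independent support for it. Time points of a replicate are the units of this exchange, and they are not independent. The causes of the other changes were not tested.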
